A study of Equus caballus with 10 samples.

Results

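Notch signalling was followed through 10 genes in equine tenocytes, the collagen-producing cells of tendon: the receptors NOTCH1, NOTCH2 and NOTCH3, the ligands JAG1, JAG2 and DLL1, and the transcriptional targets HES1, HEY1, HEY2 and HEYL. The members were taken by gene symbol, all 10 were found among the 29196 genes of the deposited table, and all 10 passed the filter on low values that left 17992 genes for testing. Primary cells from the superficial digital flexor tendon of adult Thoroughbred or Thoroughbred-type horses were cultured in 3D gels of bovine collagen for 14 days, and each of 5 lines, 1 horse per line, gave 1 library to each of 2 groups. The first group received PF-06650833 alone, an inhibitor of the kinase IRAK-4, at 100 nM every day. The second received the same daily PF-06650833 together with the inflammatory cytokine IL-1β at 17 ng/ml every 3 to 4 days. Both groups therefore carried the inhibitor, so the comparison shows what IL-1β did in its presence. The groups are called PF alone and PF + IL-1β, the lines are called donors 1 to 5, and the ages of single lines were not given in the labels.

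Notch receptors are cleaved and modified on their way to the cell surface, where they bind ligands of the Jagged and Delta-like families displayed by neighbouring cells. Binding exposes the receptor to an ADAM protease and then to γ-secretase, which frees the intracellular domain to enter the nucleus, join the DNA-binding protein RBPJ and a Mastermind coactivator, and switch on HES and HEY genes. The HES and HEY proteins are basic helix-loop-helix repressors, and the pathway is known for setting cell fate and differentiation in mesenchymal and vascular tissues.

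Values are on the log2 scale as deposited, which is variance-stabilized, so that a gene with 0 reads stands at 3.433 and differences between genes with few reads are compressed. Reads on genes, estimated from the spacing of the lowest values, numbered between 26429491 and 35817938 per library. In limma, fitted over all 17992 genes, a gene was called differentially expressed when its absolute log2 fold change was 1 or more and its Benjamini-Hochberg adjusted p was under 0.05. Levels on this scale are not corrected for gene length, so they are compared between libraries and not between genes. Markers of the labelled cell type were examined. COL1A1, COL1A2, DCN and LUM had mean log2 expression of at least 15.64 in either group, whereas the tendon marker TNMD was listed at the value of 0 reads in all 10 libraries. With PF alone and PF + IL-1β, mean log2 expression was 11.12 and 7.87 for SCX and 11.45 and 8.60 for MKX. It was 13.67 and 12.36 for FMOD, and only 6.76 and 5.54 for THBS4. In bulk cultures, fewer cells that express a gene and less RNA per cell cannot be told apart.

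The ligands and HEY2 differed most between the groups. With PF + IL-1β, the ligand DLL1 and the target HEY2 rose and the ligand JAG1 fell, which made 3 of 10 members differentially expressed, 2 higher and 1 lower. Of all tested genes, 6.68% met the same criteria (3.11% higher and 3.57% lower). With the donor as a block, JAG2 also fell, and 4 of 10 members were called against 8.26% of all genes. Without a minimum fold change, 4 members had an adjusted p under 0.05 against 15.5% of all genes, and 7 did with the donor block against 22.2%. The difference had the same sign in all 5 donors for 8 of 10 members, which held for 32.7% of tested genes. The median absolute log2 fold change was 0.79 over the members, 0.25 over 49 other tested pathway genes and 0.25 over all tested genes. The members were chosen with earlier results of these data known, so these comparisons with all genes are a description.

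**Figure D1:**
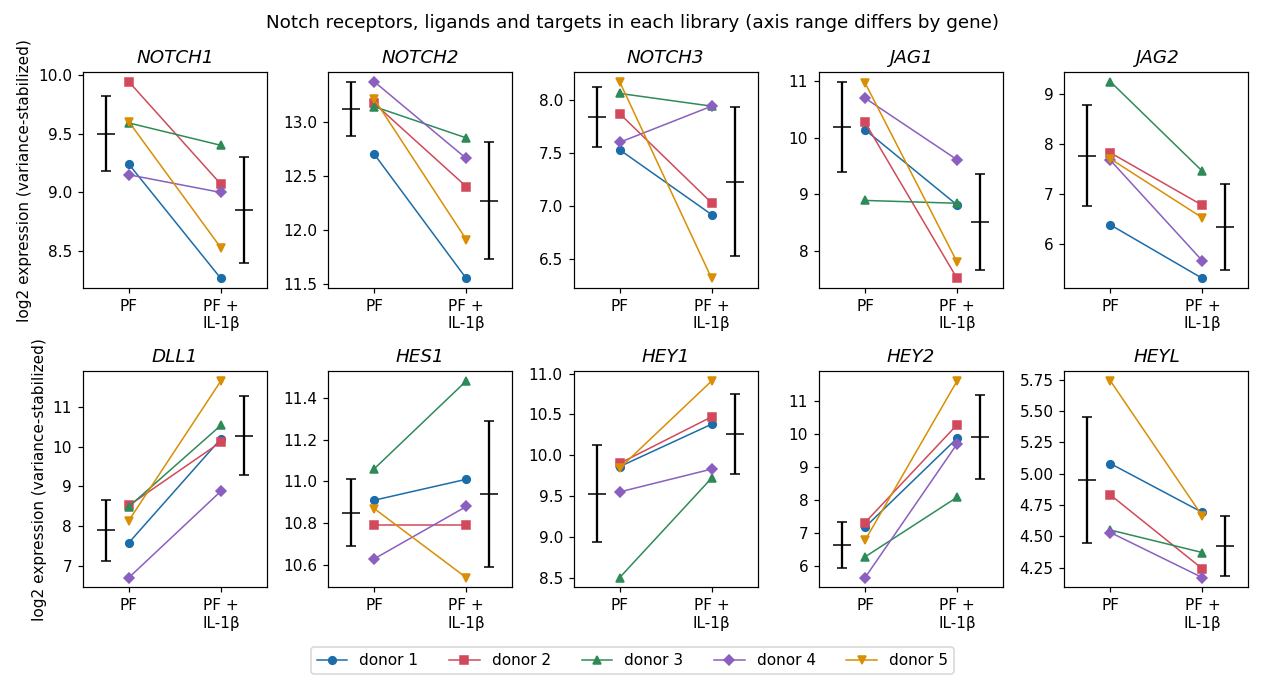
Log2 expression (vertical axis, variance-stabilized, with its own range for each gene) of the 10 Notch genes with PF alone (PF) and with PF + IL-1β. Coloured points joined by a line are the 2 libraries of 1 donor, and black bars are the mean ± SD of 5 libraries. The groups are separate for DLL1 and HEY2, while JAG1 is level in donor 3 and HES1 moves in both directions.

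HEY2, a repressor known for its roles in the heart and blood vessels, showed the largest change among the members. With PF alone, its log2 expression was 7.17, 7.31, 6.27, 5.64 and 6.77 in donors 1 to 5. With PF + IL-1β it was 9.87, 10.28, 8.08, 9.70 and 11.61. Every library with IL-1β lay above every library without it, with the smallest rise in donor 3 and the largest in donor 5. The mean rose from 6.63 ± 0.69 (SD, n = 5) to 9.91 ± 1.27 (SD, n = 5), and limma gave a log2 fold change of 3.28 with a standard error of 0.56 and an adjusted p of 0.00331. On the scale of normalised counts recovered from these values, the group means were 87.5 and 1261. HEY2 was called in all 15 fits made without 1 library or 1 donor, with log2 fold changes between 2.85 and 3.73. With the donor as a block in limma its adjusted p was 0.00171, and it was 0.00125 to 0.0103 when 1 donor was also left out.

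DLL1, a Delta-like ligand that activates Notch receptors on adjacent cells, also rose in every donor. Its log2 expression was 7.58, 8.52, 8.49, 6.70 and 8.14 in donors 1 to 5 with PF alone. It was 10.20, 10.12, 10.54, 8.88 and 11.66 with PF + IL-1β. The groups did not overlap, although donor 4 with IL-1β, the lowest of its group, stood only a little above donor 2 without it. The mean rose from 7.89 ± 0.76 (SD, n = 5) to 10.28 ± 1.00 (SD, n = 5), and limma gave a log2 fold change of 2.39 with a standard error of 0.48 and an adjusted p of 0.00773. Mean normalised counts were 240 and 1473. Without donor 1, the log2 fold change was 2.34 and the adjusted p was 0.0503, just past the threshold, and the call held in the other 14 fits made without 1 library or donor. Those fits had no donor term. With the donor as a block in limma the adjusted p of DLL1 was 0.000993, and it was 0.000943 to 0.00901 when 1 donor was also left out. DLL1 and HEY2 were the 2 members whose groups did not overlap, both higher with IL-1β, against 12.7% of tested genes in either direction and 6.29% in this one.

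The Jagged ligands went the other way. JAG1, a membrane-bound ligand, had log2 expression of 10.14, 10.27, 8.89, 10.70 and 10.97 in donors 1 to 5 with PF alone. With PF + IL-1β the values were 8.81, 7.51, 8.84, 9.61 and 7.80. Donors 1, 2, 4 and 5 were lower by 1.08 or more, whereas donor 3, the lowest of the group without IL-1β, differed by only -0.06, so the groups overlapped. The mean fell from 10.19 ± 0.80 (SD, n = 5) to 8.51 ± 0.85 (SD, n = 5), and limma gave a log2 fold change of -1.68 with a standard error of 0.45 and an adjusted p of 0.0282. This call was less stable than those of DLL1 and HEY2, being kept in 5 of the 15 fits made without 1 library or donor. Adjusted p lay between 0.0507 and 0.0705 without the PF alone library of donor 1, 2, 4 or 5, or without the PF + IL-1β library of donor 1, 2 or 5. It was 0.0929, 0.123 and 0.141 without both libraries of donor 1, 2 or 5, and the log2 fold change stayed between -2.08 and -1.31 in all 15 fits. With the donor as a block the adjusted p of JAG1 was 0.0258, and it was 0.0631 to 0.0891 when donor 1, 2 or 5 was also left out.

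JAG2, the second Jagged ligand, had log2 expression of 6.38, 7.82, 9.24, 7.67 and 7.70 in donors 1 to 5 with PF alone. With PF + IL-1β it was 5.31, 6.77, 7.45, 5.66 and 6.52. Each donor was lower with IL-1β, by between 1.04 and 2.01 in absolute log2 units, but donors differed so much in their starting level that the groups overlapped. The log2 fold change was -1.42 with a standard error of 0.52 (limma, adjusted p = 0.0924) without a donor term. With the donor as a block the standard error was 0.20 and the adjusted p was 0.00287, so JAG2 was differentially expressed when each horse served as its own control. Of the variance of JAG2 over the 10 libraries, 55.0% lay between donors and 41.6% between the groups. JAG2 was also called without a donor term when the PF alone library of donor 1 (adjusted p = 0.0406) or the PF + IL-1β library of donor 3 (adjusted p = 0.0487) was left out.

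The opposite changes of the ligands can be read within each library, where a scaling factor of the library largely cancels. The log2 ratio of DLL1 to JAG1 was -2.56, -1.75, -0.40, -3.99 and -2.83 in donors 1 to 5 with PF alone. It was 1.39, 2.60, 1.71, -0.74 and 3.86 with PF + IL-1β. The ratio was higher with IL-1β in 5 of 5 donors, by 4.07 ± 1.69 (SD, n = 5), with donor 3 showing the smallest shift (2.11) and donor 5 the largest (6.69). The log2 ratio of DLL1 to JAG2 shifted by 3.81 ± 0.76 (SD, n = 5), and by at least 2.64 in each donor. Because the ratios combine genes whose changes had been seen, they are given as a description.

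**Figure D2:**
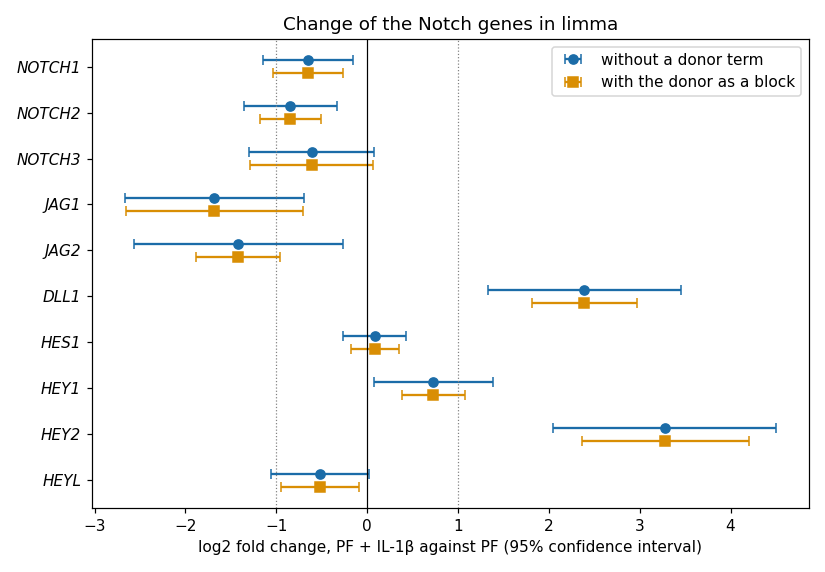
Log2 fold change (horizontal axis) of each Notch gene between PF + IL-1β and PF alone, from limma without a donor term (circles) and with the donor as a block (squares). Bars are 95% confidence intervals and dotted lines mark an absolute log2 fold change of 1. The interval of JAG2 narrows from -2.57 to -0.27 without the donor term to -1.88 to -0.96 with it, while that of JAG1 barely changes.

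All 3 receptors had lower means with IL-1β, by less than 1 log2 unit, and none was differentially expressed. NOTCH2 was at 12.70, 13.17, 13.14, 13.37 and 13.21 in donors 1 to 5 with PF alone, and at 11.55, 12.40, 12.85, 12.66 and 11.91 with PF + IL-1β. Only donor 3 with IL-1β reached the range of the group without it. The log2 fold change of NOTCH2 was -0.85 (standard error 0.23), with an adjusted p from limma of 0.0322 without a donor term and of 0.00642 with the donor block, short of the minimum fold change in both. Across the fits made without 1 library or donor, its adjusted p ranged from 0.0142 to 0.143.

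NOTCH1 was at 9.24, 9.94, 9.59, 9.15 and 9.60 with PF alone and at 8.27, 9.07, 9.40, 9.00 and 8.53 with PF + IL-1β, and the groups overlapped. It was lower in 5 of 5 donors, but by only 0.20 and 0.14 in absolute terms in donors 3 and 4. Its log2 fold change was -0.65 (standard error 0.22), with an adjusted p from limma of 0.0751, and of 0.0298 with the donor block. NOTCH3, a receptor known from vascular smooth muscle and pericytes, was at 7.53, 7.87, 8.06, 7.60 and 8.17 without IL-1β and at 6.92, 7.03, 7.94, 7.94 and 6.32 with it. Donor 5 was lower by 1.84 in absolute terms, donor 4 was higher by 0.34 and donor 3 moved by -0.11. The log2 fold change of NOTCH3 was -0.61, with a 95% confidence interval from -1.30 to 0.08 (adjusted p = 0.22 from limma), so neither no change nor a decrease of more than 1 lies outside the interval.

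Among the other targets, HEY1, a close relative of HEY2, was at 9.86, 9.90, 8.50, 9.55 and 9.84 in donors 1 to 5 with PF alone. With PF + IL-1β it was at 10.38, 10.47, 9.72, 9.83 and 10.91. Donor 3 was the lowest of both groups, and HEY1 was higher with IL-1β in 5 of 5 donors, by between 0.28 and 1.22. The log2 fold change of HEY1 was 0.73 (standard error 0.30), with an adjusted p from limma of 0.126, and of 0.0124 with the donor block, under the minimum fold change in both. The log2 ratio of HEY2 to HEY1 within a library was higher with IL-1β in 5 of 5 donors, by 2.54 ± 1.32 (SD, n = 5). Like the ligand ratios, it combines genes whose changes had been seen and is given as a description.

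HES1, the target most often used as a readout of Notch activity and one that other pathways also regulate, was nearly level. It was at 10.91, 10.79, 11.06, 10.63 and 10.87 with PF alone and at 11.01, 10.79, 11.48, 10.88 and 10.54 with PF + IL-1β. The changes within donors ran from -0.33 in donor 5, which had the largest rises of DLL1 and HEY2, to 0.43 in donor 3. The log2 fold change of HES1 was 0.09 with a 95% confidence interval from -0.26 to 0.43 (adjusted p = 0.769 from limma), which leaves room for a change of up to 0.43 but not for one of 1. HES1 had at least 1260 estimated reads in every library. Of its variance, 70.2% lay between donors and 3.1% between the groups.

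HEYL, the third HEY gene and one linked to smooth muscle, was measured from few reads. It was at 5.08, 4.83, 4.55, 4.53 and 5.74 without IL-1β and at 4.69, 4.24, 4.37, 4.17 and 4.66 with it, which corresponds to 5 to 33 and 2 to 7 estimated reads per library. HEYL was lower in 5 of 5 donors, with overlapping groups. Its log2 fold change was -0.52 with a standard error of 0.25 (limma, adjusted p = 0.185), and it was -1.17 on the back-transformed log2 scale with a pseudocount of 0.5, also without passing the threshold. With the donor block the adjusted p was 0.0831. Of the variance of HEYL, 51.8% lay between donors and 35.7% between the groups.

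**Figure D3:**
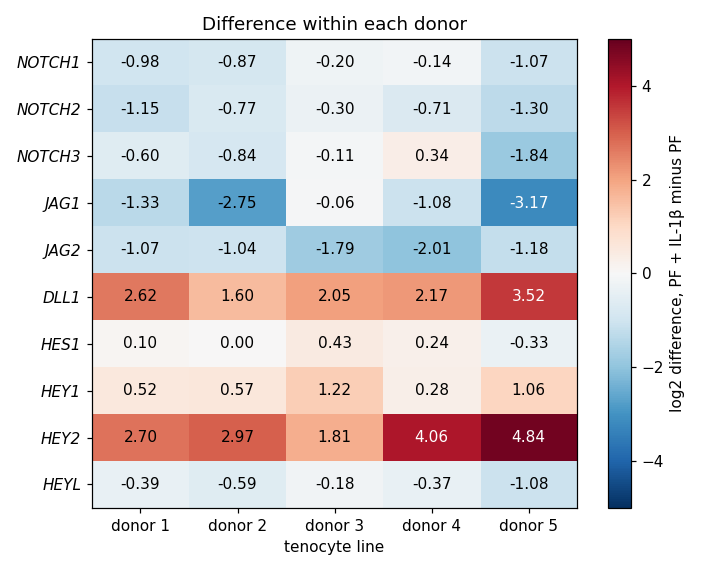
Log2 difference between PF + IL-1β and PF alone within each donor (columns) for the 10 Notch genes (rows). Red is higher and blue lower with IL-1β, and each cell prints its value. Donor 5 has the darkest cells for JAG1 (-3.17), DLL1 (3.52) and HEY2 (4.84), and donor 3 is palest for JAG1 (-0.06).

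Donors differed in how far the Notch genes moved. Donor 5 had the largest absolute difference for 7 of 10 members, and donor 3 had the smallest for 5. The root mean square log2 difference over the 10 members was 1.42, 1.51, 1.12, 1.65 and 2.36 in donors 1 to 5. Over all tested genes it was 0.79, 0.88, 0.64, 0.84 and 0.98, so donor 5 was also the highest and donor 3 the lowest of all when every gene was counted. JAG2, HEY1 and HES1 did not follow this order. JAG2 had its largest difference in donor 4 (-2.01) and the next in donor 3 (-1.79). HEY1 (1.22) and HES1 (0.43) had their largest in donor 3. DLL1 in donor 3 was higher by 2.05 although JAG1 in the same donor was level.

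Few other genes of the pathway passed the test. Of 56 other pathway genes, 55 were in the table and 49 were tested, and 1 was differentially expressed, against 6.68% of all genes. The median absolute log2 fold change of the 49 was 0.25, the same as over all tested genes. The gene was KAT2B, an acetyltransferase that serves as a coactivator of the Notch transcription complex among others, which rose from 12.51 ± 0.21 (SD, n = 5) to 13.51 ± 0.40 (SD, n = 5), and limma gave a log2 fold change of 1.00 with a standard error of 0.18 and an adjusted p of 0.00482. It stood at the minimum fold change, and it was not called under quantile normalisation (0.98) or in 6 of the 15 fits made without 1 library or donor, with log2 fold changes of 0.80 to 0.98. These 6 fits left out the PF alone library of donor 3 or 4, the PF + IL-1β library of donor 1 or 4, or both libraries of donor 1 or 4.

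Without a minimum fold change, 5 of the 49 had an adjusted p under 0.05, against 15.5% of all genes. Among these were KAT2B and 3 of the 9 tested genes of receptor cleavage. These 3 were higher with IL-1β, by 0.46 to 0.51 log2 units. Over all 9 tested cleavage genes the median log2 fold change was 0.22, and 2 of the 9 had lower means with IL-1β. ADAM10, the protease that makes the first cut in a ligand-bound receptor, went from 11.84 ± 0.16 (SD, n = 5) to 12.32 ± 0.14 (SD, n = 5), with an adjusted p of 0.00851 from limma. The γ-secretase subunits PSENEN (log2 fold change 0.46, adjusted p = 0.00738) and APH1B (0.51, adjusted p = 0.0205) were also higher in 5 of 5 donors. Their groups did not overlap, which held for 12.7% of tested genes in either direction. Across the limma fits made without 1 library or donor, adjusted p reached 0.0531 for ADAM10, 0.0509 for PSENEN and 0.0935 for APH1B. PSEN2, a catalytic subunit, did not pass the test, with a log2 fold change of 0.23.

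RBPJ, the DNA-binding protein of the pathway, was at 12.55 ± 0.15 (SD, n = 5) without IL-1β and at 12.73 ± 0.16 (SD, n = 5) with it, which limma put at a log2 fold change of 0.18 with a standard error of 0.11 (adjusted p = 0.305). DNER, which encodes a transmembrane protein related to the Delta ligands, varied widely between donors, with 10.65 ± 1.65 (SD, n = 5) and 9.34 ± 1.16 (SD, n = 5). Its log2 fold change was -1.31, with an adjusted p from limma of 0.284 without a donor term and of 0.0176 with the donor block, under which it was called unless donor 2 was left out (adjusted p = 0.0656). The fringe glycosyltransferases LFNG (-0.14) and RFNG (-0.26) and the 12 tested genes of endocytosis and turnover, whose log2 fold changes ran from -0.35 to 0.68, did not pass the test.

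**Figure D4:**
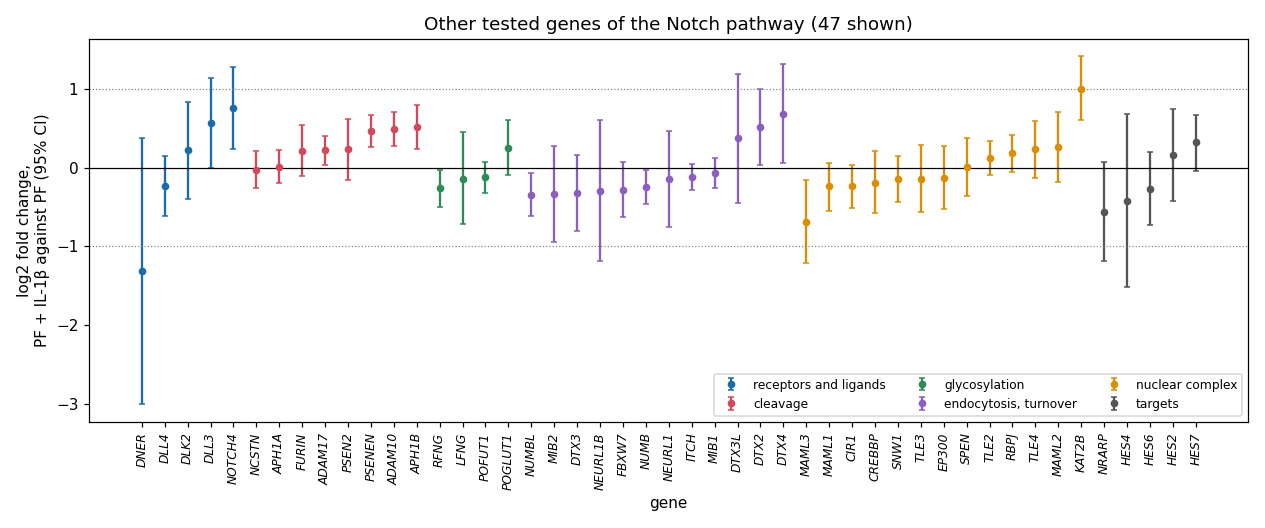
Log2 fold change (vertical axis) with 95% confidence intervals from limma without a donor term for 47 of the other tested genes of the Notch pathway, ordered within 6 functional groups by colour. Dotted lines mark an absolute log2 fold change of 1. KAT2B reaches the upper line at 1.00, and DNER (-1.31) has an interval that crosses 0.

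Markers of other cells in which Notch genes are known to act were examined beside these results, and their part in them was not tested. Of 10 endothelial markers, 6 had fewer than 10 estimated reads in every library, among them CDH5, TIE1 and EMCN. The summed normalised counts of the endothelial list were 233 to 721 with PF alone and 52.2 to 108 with PF + IL-1β, a difference that came mainly from ERG, a transcription factor with a log2 fold change of -2.68 (limma, adjusted p = 3.89e-04). Of the 7 tested endothelial markers, ERG was the 1 called, against 6.68% of all tested genes. PECAM1 (0.67) and TEK (0.51) had higher means with IL-1β from few reads, and 5, ERG among them, had lower ones. Of 7 mural cell markers, which include those of pericytes and smooth muscle, 3 were differentially expressed, all lower, against 6.68% of all tested genes. These were RGS5 (log2 fold change -1.96), CSPG4 (-1.84) and DES (-2.98). MCAM (0.34) and ABCC9 (1.02) had higher means with IL-1β, PDGFRB (-0.38) and MYH11 (-0.56) had lower ones, and none of these was called. The summed counts of the mural list overlapped, at 14835 to 51326 and 12795 to 27089. Of 8 leukocyte markers, 4 had fewer than 10 estimated reads in every library, including PTPRC, and the summed counts were 220 to 1976 and 344 to 2148. Of the 4 tested, 1 was called, against 6.68% of all tested genes. This was CD68, a lysosomal glycoprotein of macrophages and other cells, which rose in 5 of 5 donors. Its log2 fold change was 1.70 (limma, adjusted p = 0.00795), and its groups did not overlap. CD14 had a log2 fold change of 2.66 and an adjusted p of 0.34, with differences of 0.02, 1.13, 0.00, 5.32 and 6.84 in donors 1 to 5. It had 0 reads with PF alone in donors 3, 4 and 5 and with PF + IL-1β in donor 3. In donor 1, which had the largest leukocyte sums (1976 and 2148), CD14 gave 1662 and 1682 of them. Among the 8 tested tendon cell markers, 2 were called, both lower, namely SCX (-3.24) and MKX (-2.85), against 6.68% of all tested genes. With the donor block 4 were called, all lower, against 8.26% of all tested genes. COL1A1 (-1.38, adjusted p = 0.0147) and COL1A2 (-1.28, adjusted p = 0.0169) were added. DCN had a log2 fold change of 1.01 (adjusted p = 0.268, and 0.0529 with the donor block) and was higher in 5 of 5 donors.

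The genes whose pattern over the 10 libraries was most like that of a called member were found by the root mean square difference of centred log2 values. For HEY2 these were FGF12 (0.49), SLC6A12 (0.61) and ADIPOQ (0.62). For DLL1 they were ZIC2 (0.50), CRLF2 (0.50) and SOX11 (0.52). For JAG1 they were SELENOP (0.31), RANBP3L (0.36) and NEXN (0.36). These genes share the libraries and the treatment with the members, and the likeness is a description.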

How the data were processed

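RNA of 10 libraries was sequenced by the authors as 150 bp paired-end reads, checked with FastQC (version 0.11.9) and quantified with Salmon (version 1.8, with GC-bias correction) on the EquCab3.0 transcriptome. Genes were summed with tximport, and the authors tested them with DESeq2 (version 1.36), which was not repeated here. The authors deposited log2 values, 1 column per library. The transformation is not named in the sources used here and was recognised as variance-stabilizing from the lowest value shared by all libraries. Normalised counts were obtained by inverting it, and reads estimated from them are approximate, since 69.1% to 86.6% of low values lay within 0.15 of a whole read.

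The filter kept genes that exceeded the lowest value in 5 or more libraries, and limma (version 3.58.1, under R 4.3.3) was fitted with a mean-variance trend. The paper names no donor term, so the donor, taken from the line in the sample titles, was a block in a second fit. Deviations from the group means were shared within donors (correlation across genes 0.367 to 0.506 over 5 pairs, against -0.266 to 0.0869 over 20 pairs of different donors). Because deviations in a group sum to 0, positive correlations within donors pull those of different donors below 0, so the ranges are not independent. The fit was also run on simulated counts, which were drawn without a donor effect, so that check does not bear on the deviations shared within donors. All members, the other pathway genes with an adjusted p under 0.05 in either fit, and RBPJ were named, apart from an item that is not reported here, with for each called member the 3 genes of most similar pattern. A few further pathway genes and markers were named to give their group's values. The members and gene lists were chosen with earlier results of these data known. Gene symbols of all 10 members were found in RefSeq for another horse assembly, so no positions are given.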

Additional observations from a re-analysis of the deposited data

Results flagged for a closer look

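Of 34 groups of 5 libraries examined for the members and the named pathway genes, 1 held a library that stood apart from the other 4, where chance gives about 1.7. HEY1 was at 8.50 in donor 3 with PF alone, against 9.55 to 9.90 in the other 4 donors.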

How the results depend on the processing

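There were 11 alternatives for the scale, normalisation, filter, variance model, donor term and thresholds. HEY2 and DLL1 were called in all 11 and JAG1 in 10, the exception being an adjusted p below 0.01. Dropping the fold minimum cannot lose a call. Every member kept its direction, but only the alternatives of scale and normalisation could have changed it. The others leave the log2 fold change of a gene as it was. When a library or a donor was left out, 1 of the 10 members changed sign in 1 of 15 fits, which was HES1 at -0.05 without the PF + IL-1β library of donor 3 (range -0.05 to 0.19), and 1 to 4 members were called. With the replicate block but without the fold minimum 7 members were called. The replicate block alone added JAG2 and changed no other member's call. With the replicate block and without 1 donor in turn, fits added after the data were seen, 3 or 4 members were called.

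Of the other pathway genes, against 1 in the fit as reported, 2 were called with the replicate block, 0 under quantile normalisation, 5 without a minimum fold change, 6 with the replicate block but without the fold minimum, 0 or 1 when a library or a donor was left out and 1 or 2 when a donor was left out with the replicate block. Over all genes, against 1202, there were 2782 without a minimum fold change, 3996 with the replicate block as well and 719 at an adjusted p below 0.01, with 762 to 1422 when a library or a donor was left out. The cause of these changes was not tested. Scaling moved the median log2 fold change of all genes by at most 0.03. HEYL rests on 2 to 33 estimated reads per library, and the part of depth in its missing call was not tested.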

Other observations

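Several Notch genes known from other tissues were at or near the value of 0 reads in these tenocytes. HES5, HES3 and HELT were listed at that value in all 10 libraries, and DLK1, DTX1 and MFNG were above it in too few libraries to be tested. DLL4, the Delta-like ligand of endothelium, had 1 to 8 estimated reads per library and a log2 fold change of -0.23 (adjusted p = 0.416 from limma). NOTCH4, the endothelial receptor, had 9 to 30 estimated reads with PF alone and 29 to 51 with PF + IL-1β, giving a log2 fold change of 0.76 (adjusted p = 0.053 from limma). It was higher in 4 of 5 donors and not differentially expressed.

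The target NRARP, a feedback inhibitor of the pathway, had 14 to 74 estimated reads without IL-1β and 10 to 22 with it, with a log2 fold change of -0.56 (adjusted p = 0.219 from limma). HES4 had 2 to 148 and 8 to 32 estimated reads, and a log2 fold change of -0.42 (adjusted p = 0.635 from limma). These genes were chosen for mention after their values had been seen.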
